A study of Rattus norvegicus with 19 samples.

Results

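Astrocyte-conditioned medium (ACM), culture medium into which astrocytes have secreted for some days, was compared with no treatment, whichever astrocytes had made it. The 9 libraries exposed to an ACM were pooled and set against the 5 untreated libraries, which makes 14 of the 19 libraries of the series. Membership was taken from the sample titles and not from any expression value. Of the 9 libraries, 4 received medium of mouse astrocytes expressing human wild-type SOD1 (wtSOD1-ACM), and 5 received medium of astrocytes from transgenic mice with human SOD1 carrying the G93A change, a cause of amyotrophic lateral sclerosis (mutSOD1-ACM). All cultures, the 5 controls included, were wild-type ventral spinal cord cells of Sprague-Dawley rat embryos taken at embryonic day 14, and the exposure lasted 90 min. A further 5 libraries were exposed for the same time to 100 μM long-chain polyphosphate (polyP). By the labels the cells had been grown for 7 days in one field, for 4 in another and for 7 to 9 in the growth protocol.

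The conditioned media started as neuronal growth medium with 2% horse serum, stood on confluent mouse astrocytes for 7 days, and were filtered, frozen and given extra D-glucose. The control cultures are labelled as having had no treatment. Medium of non-transgenic astrocytes and fresh unconditioned medium are not analysed here, so the replacement of the medium, its conditioning, the added glucose and the overexpressed human SOD1 cannot be told apart in a difference from control. The sources used here do not give the promoter of the transgenes, or say whether the libraries of a group shared a preparation of medium. The labels describe the cultures as independent. The comparison asks which transcripts both media moved in the same direction from control.

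Expression was measured as FPKM, fragments scaled to transcript length and to the fragments of the library, for 15597 genes. Marker genes showed mixed cultures. The summed FPKM of 17 pan-neuronal markers ran from 1806 to 2982 in the control libraries, that of 14 astrocyte markers from 620 to 938, that of 17 oligodendrocyte lineage markers from 156 to 1028 and that of 17 microglia markers from 110 to 861. Of 10 motor neuron markers, 4 were high enough to be tested, and Chat, which makes acetylcholine, reached at most 1.34 FPKM in any library. The libraries fell by clustering into 2 sets that the labels do not name. Set 1 held 3 control, 2 wtSOD1-ACM and 3 mutSOD1-ACM libraries with the myelin gene Mbp between 169 and 372 FPKM. Set 2 held 2 libraries of each group with Mbp between 6.54 and 9.62 FPKM. A finer split of set 1 set apart control replicate 1 and mutSOD1-ACM replicates 1 and 2, with Mbp between 169 and 177 FPKM. It put no wtSOD1-ACM library with them, so the 2 media were unequally spread within set 1. Values within either set are given below for the main genes that both media moved to the same side of control. In such bulk samples, fewer cells of a type and less RNA per cell cannot be told apart.

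Transforming growth factor beta (TGF-beta) binds receptor kinases that activate Smad transcription factors, and among the first genes these switch on are their own brakes: Smad7, an inhibitory Smad that blocks and removes the receptor, and Pmepa1, a membrane protein that holds Smads away from the receptor. The integrated stress response works through ATF4, a transcription factor that is translated when amino acids run short or proteins misfold and that binds C/EBP-ATF elements in genes for amino acid uptake, amino acid synthesis, tRNA charging and stress signalling.

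The start regions of 6 genes on which the results turn are shown first, as RefSeq gives them on the GRCr8 rat assembly, from 250 bases before the annotated start to 10 after it, 5′ to 3′ on the gene's strand. The expression values were made on another assembly, rn6, so these positions are not those of the authors' alignment. Smad7 and Pmepa1 are shown because they were the only genes called in both media. The region of Smad7 lies at chr18:71263258-71263517 on the plus strand and that of Pmepa1 at chr3:182478640-182478899 on the minus strand. Capitals in the Pmepa1 region mark a cyclic AMP response element (CRE, TGACGTCA) from base -4 to base 4 around the start.
Smad7: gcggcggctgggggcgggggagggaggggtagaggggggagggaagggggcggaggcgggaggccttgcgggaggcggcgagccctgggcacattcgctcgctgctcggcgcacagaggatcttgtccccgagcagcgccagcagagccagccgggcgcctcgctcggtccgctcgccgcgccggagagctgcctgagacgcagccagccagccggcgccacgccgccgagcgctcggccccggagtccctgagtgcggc
Pmepa1: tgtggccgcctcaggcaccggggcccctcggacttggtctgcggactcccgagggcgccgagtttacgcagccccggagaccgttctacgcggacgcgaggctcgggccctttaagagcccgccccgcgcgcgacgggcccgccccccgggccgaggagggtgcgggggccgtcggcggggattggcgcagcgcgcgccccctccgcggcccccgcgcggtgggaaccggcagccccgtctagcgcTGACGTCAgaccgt
Chac1, Trib3, Herpud1 and Iars are shown because they were called lower in ACM and hold a match to the C/EBP-ATF element (TGATGNAAN on either strand), marked in capitals. Their regions lie at chr3:126795881-126796140 on the plus strand, chr3:161275524-161275783 on the minus strand, chr19:10614698-10614957 on the minus strand and chr17:15193643-15193902 on the minus strand. The match ended 160 bases before the start in Chac1, 14 in Trib3, 177 in Herpud1 and 17 in Iars, and was on the strand opposite to the gene in all 4.
Chac1: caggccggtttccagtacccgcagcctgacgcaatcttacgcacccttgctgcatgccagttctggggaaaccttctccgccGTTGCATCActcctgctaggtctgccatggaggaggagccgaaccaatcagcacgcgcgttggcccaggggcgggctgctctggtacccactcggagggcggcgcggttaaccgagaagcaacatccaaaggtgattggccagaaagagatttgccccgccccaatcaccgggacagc
Trib3: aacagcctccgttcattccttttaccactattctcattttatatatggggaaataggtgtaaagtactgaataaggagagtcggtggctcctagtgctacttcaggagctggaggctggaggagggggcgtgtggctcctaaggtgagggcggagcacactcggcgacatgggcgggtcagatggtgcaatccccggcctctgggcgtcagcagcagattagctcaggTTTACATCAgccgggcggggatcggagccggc
Herpud1: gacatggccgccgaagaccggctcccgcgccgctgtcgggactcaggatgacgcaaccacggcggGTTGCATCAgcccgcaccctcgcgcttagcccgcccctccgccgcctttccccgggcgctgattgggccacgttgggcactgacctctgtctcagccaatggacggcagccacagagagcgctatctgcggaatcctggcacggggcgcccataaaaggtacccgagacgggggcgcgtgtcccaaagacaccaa
Iars: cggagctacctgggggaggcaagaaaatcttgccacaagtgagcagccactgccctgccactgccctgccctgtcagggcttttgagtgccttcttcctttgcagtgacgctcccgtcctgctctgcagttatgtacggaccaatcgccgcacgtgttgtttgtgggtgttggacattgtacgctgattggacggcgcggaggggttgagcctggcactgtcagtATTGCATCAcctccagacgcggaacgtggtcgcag
The C/EBP-ATF motif and these 4 genes were picked after the expression values had been seen. Of the 27 genes called in the pooled comparison, 23 had an entry in the table of start regions. The motif stood in the 300 searched bases, from 250 before to 50 after the start, of 4 of the 5 genes called lower and of 0 of the 18 with an entry called higher. It stood in 2.04% of the 9586 tested genes with an entry and in 3.97% of all 33469 regions. The CRE stood in 2 of those 18 regions, those of Pmepa1 and Irf2bpl, against 3.35% of the tested genes. The Smad palindrome GTCTAGAC was in no region of a called gene and in 0.197% of all regions. None of the matches marked in capitals overlapped a match to another motif searched. A match is a description of letters and not a measured binding site.

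The pooled comparison called few genes. On the log2(FPKM + 1) scale, 27 of 11887 tested genes (0.227%) differed between the 9 ACM and the 5 control libraries at an adjusted p under 0.05 (limma, Benjamini-Hochberg). Of these, 22 (0.185%) were higher and 5 (0.0421%) lower in ACM. Each medium was then read against the same 5 control libraries, so the 2 contrasts share their controls. WtSOD1-ACM gave 75 calls (0.631%), 67 higher (0.564%) and 8 lower (0.0673%), and mutSOD1-ACM gave 2 (0.0168%), both higher. In mutSOD1-ACM 426 genes (3.58%) had an unadjusted p under 0.05, a smaller share than this threshold passes on average when no gene differs. Between the 2 media, 56 genes (0.471%) were called, 55 of them lower (0.463%) and 1 higher (0.00841%) in mutSOD1-ACM. Among the 27 pooled calls, both media lay above control for 17, both lay below for 5, and they lay on opposite sides for 5. Of the 27, 14 were also called between the media, all of them among the 22 that were higher. That leaves 13 genes with both media on the same side of control and no called difference between the media, 8 higher and 5 lower. Only Smad7 and Pmepa1 among the 13 were called in mutSOD1-ACM. A missing call between the media does not show that they acted alike. Among the 13, the lowest unadjusted limma p between the media was 0.000366 for Chsy1, then 0.0035 for F3, 0.00423 for Herpud1 and 0.00468 for Rhob. For comparison, both media lay above control for 31.9% and below control for 30.5% of all tested genes, whatever the size of the difference. The count of 27 depended on single libraries: it was 13, 14, 17 and 15 without wtSOD1-ACM replicates 1, 2, 3 and 4 in turn, and 16 without control replicate 4. With the 9 libraries entered as 1 group, which adds the difference between the media to the residual spread, 8 genes were called: Smad7, Pmepa1, Foxc2, Irf2bpl and Ier5l higher, and Chac1, Mthfd2 and Trib3 lower. With the set as a term in the fit, 49 genes (0.412%) were called, the 27 among them. Chsy1, 1 of the 13, was then also called between the media (adjusted p = 0.0327). With the polyP libraries left out of the fit, 19 genes were called, 18 of them among the 27: F3, Irf2bpl, Stat3, Iars, Chsy1, Rnf19b, Ier5l, Map2k3 and Foxc2 lost the call.

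**Figure D1:**
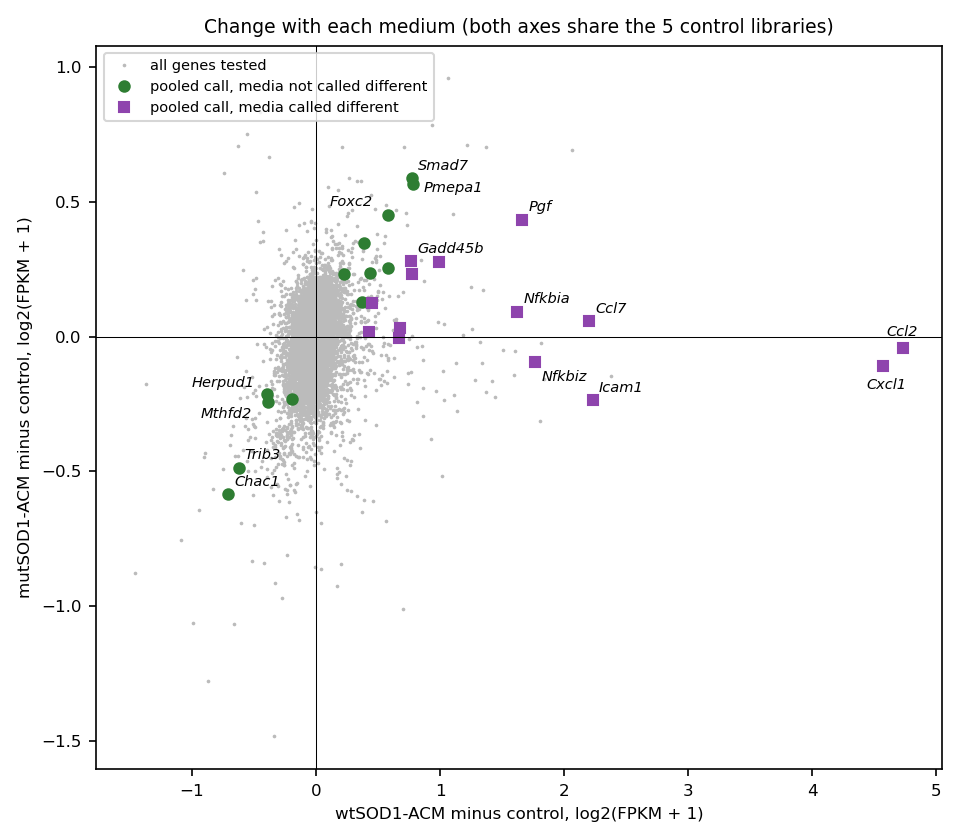
Difference in mean log2(FPKM + 1) from control for each tested gene, wtSOD1-ACM (horizontal) and mutSOD1-ACM (vertical); both axes share the 5 control libraries and differ in scale. The 13 pooled calls with no called difference between the media (circles) include Smad7 and Pmepa1 at the upper right and Chac1 and Trib3 at the lower left, while Cxcl1 and Ccl2 (squares) lie at 4.58 and 4.74 on the horizontal axis and at -0.11 and -0.04 on the vertical one.

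Smad7 and Pmepa1 were the only genes called in both media, 2 of 11887 (0.0168%), and both rose. Smad7 (gene ID 81516) stood at 5.96, 7.09, 7.24, 6.84 and 6.21 FPKM in control libraries 1 to 5. It stood at 11.59, 10.99, 13.07 and 12.79 FPKM with wtSOD1-ACM and at 10.03, 10.47, 9.66, 10.75 and 11.71 FPKM with mutSOD1-ACM. Every ACM library lay above every control library, and the wtSOD1-ACM and mutSOD1-ACM libraries overlapped. The mean rose from 6.67 ± 0.558 FPKM (SD, n = 5) to 12.1 ± 0.985 (n = 4) and 10.5 ± 0.783 (n = 5). The pooled difference in log2(FPKM + 1) was 0.67 (SE 0.063, limma adjusted p = 2.55e-05), with 0.77 for wtSOD1-ACM (adjusted p = 8.78e-06) and 0.59 for mutSOD1-ACM (adjusted p = 0.00232). The difference of mutSOD1-ACM minus wtSOD1-ACM was -0.19 (SE 0.076, adjusted p = 0.83). The pooled difference was 0.57 within set 1 and 0.80 within set 2, and it was called in every one of the 14 fits that left out 1 library. In set 1 alone the mutSOD1-ACM call was lost (adjusted p = 0.241).

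Pmepa1 (gene ID 311676) was more abundant per length than Smad7. Its control libraries held 71.30, 71.31, 73.08, 55.15 and 60.55 FPKM. The wtSOD1-ACM libraries held 109.51, 107.65, 123.49 and 115.34 FPKM, and the mutSOD1-ACM libraries 98.94, 106.92, 96.72, 94.20 and 94.15 FPKM. Again no ACM library overlapped the controls, and here every mutSOD1-ACM library also lay below every wtSOD1-ACM library. The pooled difference was 0.66 (SE 0.078, adjusted p = 0.000354), with 0.78 for wtSOD1-ACM (adjusted p = 0.000111) and 0.57 for mutSOD1-ACM (adjusted p = 0.0316). The difference of mutSOD1-ACM minus wtSOD1-ACM was -0.21 (SE 0.094, adjusted p = 0.893). Within the sets the pooled difference was 0.52 and 0.86, and it was called in all 14 fits without 1 library. The mutSOD1-ACM call was less firm: it was lost without control replicate 4 or 5, without wtSOD1-ACM replicate 1, 2 or 4 and without each mutSOD1-ACM replicate, with an adjusted p of up to 0.164. It was also lost with no filter on low values (adjusted p = 0.0522), with median-of-ratios scaling (0.0787), at equal summed FPKM (0.102), with quantile normalization (0.137) and in set 1 alone (0.192), so that under these settings Pmepa1 was not called in both media.

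The TGF-beta and BMP list held both of these genes. Of its 18 tested members, 2 were called higher and 0 lower, and 4 were higher and 0 lower at an unadjusted p under 0.05, where 2.36% of all tested genes were higher. Both media lay above control for 7 members, below for 3 and on opposite sides for 8, and the median difference was 0.05 pooled, 0.05 for wtSOD1-ACM and 0.18 for mutSOD1-ACM, against 0.00 pooled over all genes tested. Beside the 2 calls, Grem1, a secreted BMP antagonist, differed by 0.26 (adjusted p = 0.895) and Id2, an inhibitor of basic helix-loop-helix factors, by 0.15 (adjusted p = 1, unadjusted 0.0183). Id1, a classic BMP target, differed by -0.10 with wtSOD1-ACM and 0.27 with mutSOD1-ACM, and Smad6, the BMP-side inhibitory Smad, by -0.18 and 0.25, none of them called. Tgif1, a homeobox repressor of Smad-driven transcription that is outside the list and was picked after its values were seen, also held all 9 ACM libraries above the controls. Its control libraries ran from 22.70 to 25.05 FPKM, its wtSOD1-ACM libraries from 27.58 to 37.54 and its mutSOD1-ACM libraries from 26.08 to 30.29. The pooled difference of 0.29 was not called in the main fit (adjusted p = 0.105), but was with the set as a term (0.0107). Tgif1 was called with wtSOD1-ACM (0.39, adjusted p = 0.0194) and not with mutSOD1-ACM (0.21, adjusted p = 0.966).

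**Figure D2:**
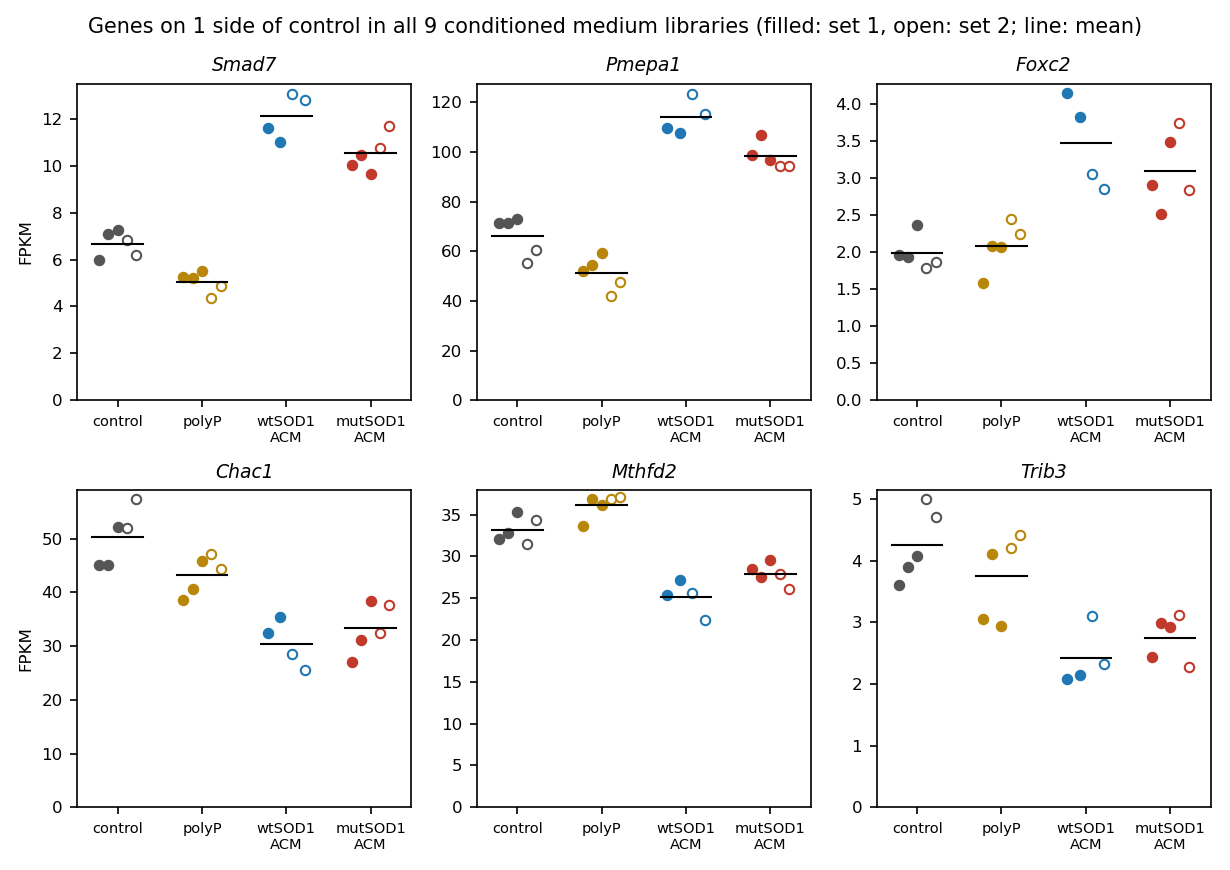
FPKM per library of 3 genes that were higher and 3 that were lower in all 9 ACM libraries than in all 5 controls (linear axes from 0; filled points set 1, open points set 2; line, group mean). Smad7 rose from a mean of 6.67 to 12.1 and 10.5 FPKM, and Chac1 fell from 50.3 to 30.5 and 33.3 FPKM; the polyP libraries are shown for reference.

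All 5 genes that fell in the main pooled fit belong to lists of amino acid and protein-folding stress. They are 3 ATF4 targets, 1 aminoacyl-tRNA synthetase and 1 endoplasmic reticulum gene. These lists were chosen with earlier results of these data known. With the set as a term 11 genes were called lower, and the 3 lists held 6, 1 and 1 in turn, so some lay outside them. In each of the 5 genes of the main fit all 9 ACM libraries lay below all 5 controls. Such separation was seen for 10 of 11887 tested genes in the lower direction (0.0841%) and for 6 in the higher (0.0505%). How many genes would separate so by chance was not computed, so separation without a call only describes the values. Of the 10, the entry with the lowest pooled difference was Mir1896, the gene of a microRNA, which a poly(A) library does not measure in its mature form. It ran from 7.01 to 11.94 FPKM in control, from 3.48 to 5.83 with wtSOD1-ACM and from 4.35 to 7.00 with mutSOD1-ACM, for a pooled difference of -0.78 that was not called (adjusted p = 0.0633), with -0.94 for wtSOD1-ACM, which was called (adjusted p = 0.0245), and -0.65 for mutSOD1-ACM. Aldh18a1, an enzyme of proline synthesis, and RGD1562310 also lay lower without overlap, by -0.16 and -0.15 (adjusted p = 0.349 and 0.371). Chac1 (gene ID 362196), an enzyme that degrades glutathione, held 45.04, 45.01, 52.15, 52.03 and 57.37 FPKM in control. It held 32.47, 35.37, 28.51 and 25.55 FPKM with wtSOD1-ACM and 27.06, 31.05, 38.44, 32.46 and 37.65 FPKM with mutSOD1-ACM. The 2 media overlapped over most of their range. The pooled difference was -0.64 (SE 0.091, adjusted p = 0.00268), with -0.71 for wtSOD1-ACM (adjusted p = 0.00146) and -0.59 for mutSOD1-ACM, which was not called (adjusted p = 0.0905). The difference between the media was 0.12 (SE 0.11, adjusted p = 0.998). The pooled difference was -0.52 within set 1 and -0.81 within set 2, and the pooled call held in all 14 fits without 1 library. In set 1 alone the pooled call was lost (adjusted p = 0.289), while it held in set 2 alone (adjusted p = 0.000365). Chac1 joined Smad7 and Pmepa1 as a call in both media when 3 clusters of libraries, a finer split of set 1, were a term, where the mutSOD1-ACM adjusted p was 0.00634.

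Trib3 (gene ID 246273), a pseudokinase that feeds back on ATF4, was scarce: 3.60, 3.90, 4.07, 4.99 and 4.71 FPKM in control, 2.08, 2.15, 3.10 and 2.33 FPKM with wtSOD1-ACM, and 2.43, 2.99, 2.92, 3.11 and 2.28 FPKM with mutSOD1-ACM. The pooled difference was -0.55 (adjusted p = 0.0207), with -0.62 and -0.49 for the 2 media. This call was lost without control replicate 3, 4 or 5 and without wtSOD1-ACM replicate 1, 2 or 4, with an adjusted p of up to 0.0945. Mthfd2 (gene ID 680308), a mitochondrial enzyme of one-carbon metabolism, ran from 31.47 to 35.28 FPKM in control, from 22.41 to 27.13 with wtSOD1-ACM and from 26.13 to 29.61 with mutSOD1-ACM. Its pooled difference was -0.31 (adjusted p = 0.00449), with -0.39 and -0.24. Herpud1 (gene ID 85430), which helps clear misfolded proteins from the endoplasmic reticulum, ran from 46.27 to 50.06 FPKM in control, from 33.06 to 40.38 with wtSOD1-ACM and from 37.64 to 43.40 with mutSOD1-ACM, for a pooled difference of -0.29 (adjusted p = 0.00557). Iars (gene ID 306804), the synthetase that charges tRNA with isoleucine, ran from 41.95 to 48.75 FPKM in control, from 37.54 to 41.69 with wtSOD1-ACM and from 36.43 to 40.09 with mutSOD1-ACM. Its pooled difference of -0.21 was just under the threshold (adjusted p = 0.0446), and it was called in 3 of the 14 fits without 1 library: those without control replicate 1 or 2 or mutSOD1-ACM replicate 4. Mthfd2 and Herpud1 were called in all 14. Within set 1 and set 2 the pooled difference was -0.47 and -0.67 for Trib3, -0.27 and -0.36 for Mthfd2, -0.24 and -0.35 for Herpud1 and -0.21 and -0.23 for Iars. In set 1 alone all 4 lost the call (adjusted p = 0.306, 0.299, 0.302 and 0.621 in turn). In set 2 alone Iars lost it too (adjusted p = 0.158). For these 4 genes the mutSOD1-ACM contrast alone had an unadjusted p of at most 0.000844 and an adjusted p of at least 0.301, and no difference between the media was called. With wtSOD1-ACM alone Trib3, Mthfd2 and Herpud1 were called. Iars was not (adjusted p = 0.164), so it was called in neither medium alone.

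Many other members of these lists lay on the same side of control without passing the pooled test. Of 28 tested ATF4 targets, 3 were called lower (Chac1, Trib3 and Mthfd2) and 0 higher, and at an unadjusted p under 0.05 13 were lower and 1 higher, where 0.900% of all tested genes were lower and 2.36% higher. Both media lay below control for 19 of the 28, above for 1 and on opposite sides for 8. The list median was -0.14 pooled, -0.20 for wtSOD1-ACM and -0.12 for mutSOD1-ACM, against 0.00 over all genes tested, and -0.18 and -0.15 within set 1 and set 2. Sesn2, a stress-induced regulator of growth signalling, differed by -0.48 (adjusted p = 0.0679), from 20.41 to 28.00 FPKM in control against 12.17 to 18.66 and 16.78 to 23.31 with the 2 media. Asns, which makes asparagine, ran from 24.46 to 25.63 FPKM in control, from 19.76 to 22.14 with wtSOD1-ACM and from 22.39 to 24.43 with mutSOD1-ACM; all 9 lay below the controls, and the pooled difference of -0.17 was not called (adjusted p = 0.116). The amino acid carriers Slc7a1, Slc7a5 and Slc3a2 differed by -0.31, -0.28 and -0.21, with adjusted p = 0.733, 1 and 0.638. Atf4 itself differed by -0.11 (adjusted p = 1), and Ppp1r15a, the phosphatase subunit that ends the response, by 0.17 (adjusted p = 0.625), the 1 member higher at an unadjusted p under 0.05. Psat1 and Phgdh of serine synthesis differed by 0.02 and -0.05. With wtSOD1-ACM alone, 5 of the 28 ATF4 targets were called lower and 1 higher, and with mutSOD1-ACM alone 0 were called. The 1 called higher with wtSOD1-ACM was Ppp1r15a (0.31, adjusted p = 0.0151). Sesn2 (-0.67, adjusted p = 0.0085) and Asns (-0.26, adjusted p = 0.00831) were among those called lower.

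Of 17 tested cytosolic aminoacyl-tRNA synthetases, 1 (Iars) was called lower, and at an unadjusted p under 0.05 7 were lower and 1 higher. Both media lay below control for 11 and above for 3, with a median of -0.06. Aars, for alanine, ran from 109.57 to 119.31 FPKM in control against 102.78 to 105.43 and 100.51 to 109.05 with the 2 media, all 9 below control, for a difference of -0.13 (adjusted p = 0.293). Tars, Lars, Mars and Cars differed by -0.11, -0.12, -0.14 and -0.18 (adjusted p from 0.733 to 1). Hars, for histidine, differed by 0.09 the other way. The C/EBP-ATF motif stood in 7 of the 15 synthetase regions with an entry, among them Iars, Aars, Tars, Mars and Cars, and in 6 of 26 ATF4 target regions. Of 19 endoplasmic reticulum chaperones and their partners, Herpud1 alone passed an unadjusted p under 0.05, and the main chaperones Hspa5 and Hsp90b1 differed by -0.07 and -0.09 (adjusted p = 1 for both).

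**Figure D3:**
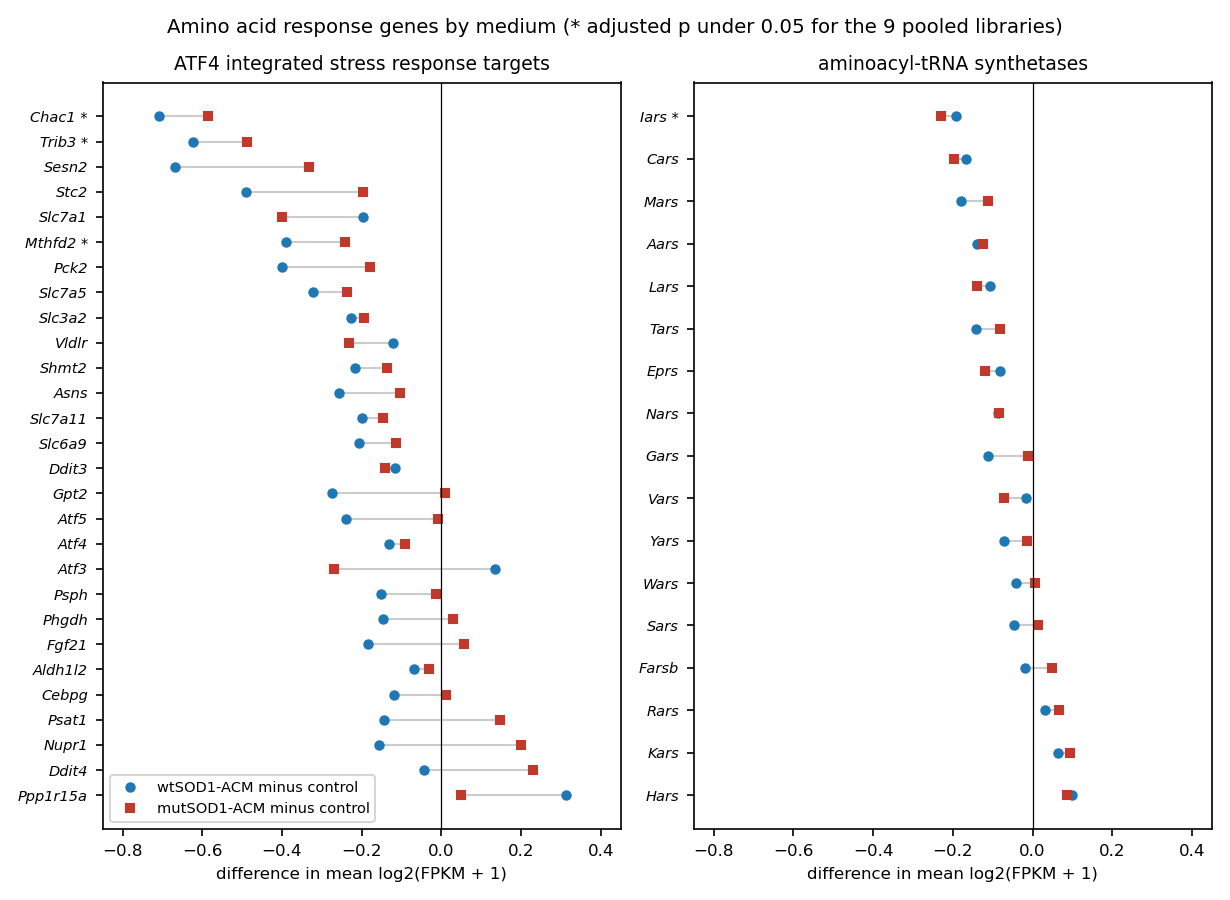
Difference in mean log2(FPKM + 1) from control for each tested ATF4 target (left) and aminoacyl-tRNA synthetase (right), wtSOD1-ACM as circles and mutSOD1-ACM as squares, ordered by the pooled difference. Both media lay left of 0 for 19 of 28 ATF4 targets and 11 of 17 synthetases; asterisks mark Chac1, Trib3, Mthfd2 and Iars.

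Beside Smad7 and Pmepa1, 6 genes rose in the pooled comparison with both media above control and no called difference between the media in the main fit. They were named after their values were seen. None of the 6 was called in mutSOD1-ACM alone (adjusted p from 0.301 to 0.966), while all but Irf2bpl were called in wtSOD1-ACM. Foxc2, a forkhead factor of mesenchyme and vessels, was scarce: 1.79 to 2.37 FPKM in control, 2.86 to 4.15 with wtSOD1-ACM and 2.52 to 3.74 with mutSOD1-ACM, with no overlap with control (0.51, adjusted p = 0.0207). Irf2bpl, a nuclear zinc-finger protein, differed from control by a like amount in both media. It held 62.64, 60.53, 65.61, 66.51 and 70.91 FPKM in control, 75.34, 71.79, 82.56 and 76.55 FPKM with wtSOD1-ACM and 73.40, 79.36, 74.56, 79.68 and 77.01 FPKM with mutSOD1-ACM, again without overlap. The difference was 0.23 pooled (adjusted p = 0.0279) and 0.23 with each medium, and 0.01 between them (SE 0.052). Ier5l, an immediate early response gene, ran from 28.35 to 35.45 FPKM in control, from 36.72 to 45.22 with wtSOD1-ACM and from 34.31 to 42.12 with mutSOD1-ACM (0.36, adjusted p = 0.0182), with an overlap of control replicate 5 and mutSOD1-ACM replicate 4.

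Rhob, a small GTPase of the actin cytoskeleton and endosomes, was the most abundant of these 6, at 205 to 239 FPKM in control, 278 to 305 with wtSOD1-ACM and 232 to 278 with mutSOD1-ACM (0.32, adjusted p = 0.00557). F3, the tissue factor that starts coagulation, ran from 70.52 to 98.77 FPKM in control, from 121.69 to 136.84 with wtSOD1-ACM and from 93.36 to 116.22 with mutSOD1-ACM (0.40, adjusted p = 0.0463). Chsy1, which builds chondroitin sulfate, ran from 29.41 to 33.24 FPKM in control, from 38.66 to 42.77 with wtSOD1-ACM and from 32.25 to 36.84 with mutSOD1-ACM (0.24, adjusted p = 0.0332). In Rhob, F3 and Chsy1 the mutSOD1-ACM libraries overlapped the controls. The differences with wtSOD1-ACM and mutSOD1-ACM in turn were 0.43 and 0.24 for Rhob, 0.58 and 0.26 for F3 and 0.37 and 0.13 for Chsy1. Those of Foxc2 were 0.58 and 0.45, and those of Ier5l 0.38 and 0.35. By set (1, then 2), the pooled difference was 0.36 and 0.26 for Rhob, 0.49 and 0.27 for F3, and 0.17 and 0.33 for Chsy1. It was 0.49 and 0.54 for Foxc2, 0.25 and 0.20 for Irf2bpl and 0.41 and 0.29 for Ier5l. Rhob, F3, Foxc2, Irf2bpl and Ier5l were called in neither set alone (limma adjusted p from 0.0523 to 0.914). Chsy1 was called within set 2 (adjusted p = 0.0211) and not within set 1 (0.825). Rhob was called in all 14 fits without 1 library. The others lost the call without some: Foxc2 without control replicate 1, 2, 4 or 5 or wtSOD1-ACM replicate 1 or 2 (adjusted p up to 0.0814), Irf2bpl without control replicate 1, 2, 3 or 4 or wtSOD1-ACM replicate 1, 3 or 4 (up to 0.0889), and Ier5l without control replicate 1, 2, 3 or 4 (up to 0.0723). Chsy1 lost it without control replicate 1, 3, 4 or 5 or any wtSOD1-ACM replicate (up to 0.16), and F3 without control replicate 1, 2, 3 or 4, any wtSOD1-ACM replicate or mutSOD1-ACM replicate 3 (up to 0.184).

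The other 14 pooled calls differed between the media, all with wtSOD1-ACM higher. For 9 of them mutSOD1-ACM also lay above control on average, by 0.02 to 0.43. Pgf, placental growth factor of the VEGF family, held 4.92, 3.38, 3.55, 3.47 and 3.31 FPKM in control, 14.36, 14.44, 12.56 and 14.23 FPKM with wtSOD1-ACM and 5.25, 5.40, 5.00, 5.61 and 5.46 FPKM with mutSOD1-ACM. The 3 groups did not overlap. Its pooled difference of 0.98 (adjusted p = 5.91e-05) was made of 1.66 and 0.43, the latter not called (unadjusted p = 0.00131, adjusted 0.966), and the media differed (adjusted p = 9.43e-06). Gadd45b, a stress and growth arrest gene, ran from 36.83 to 46.23 FPKM in control, from 66.00 to 75.73 with wtSOD1-ACM and from 41.50 to 57.87 with mutSOD1-ACM (0.77 and 0.28). Ier3 ran from 27.05 to 41.04, from 64.82 to 70.08 and from 32.97 to 48.23 FPKM (1.00 and 0.28). Tnfaip6, a hyaluronan-binding protein, differed by 0.77 and 0.23, Rnf19b by 0.46 and 0.12, Itpkc by 0.67 and 0.03, Stat3 by 0.43 and 0.02, Nfkbia by 1.62 and 0.09 and Ccl7 by 2.20 and 0.06 with wtSOD1-ACM and mutSOD1-ACM in turn.

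The remaining 5, Cxcl1, Ccl2, Nfkbiz, Icam1 and Map2k3, lay on opposite sides of control, with mutSOD1-ACM at or just below it. The chemokine gene Cxcl1 held 2.76, 3.00, 2.16, 3.26 and 2.93 FPKM in control, 112.48, 107.74, 71.56 and 74.74 FPKM with wtSOD1-ACM and 3.55, 2.93, 2.03, 1.75 and 2.65 FPKM with mutSOD1-ACM. The pooled difference of 1.97 (adjusted p = 1.5e-07) was thus an average of 4.58 and -0.11. The chemokine gene Ccl2 did the same, with 4.74 and -0.04 (pooled 2.08), and the adhesion gene Icam1 gave 2.23 and -0.24 (pooled 0.86). In the list of NF-kB inflammatory targets, 6 of 20 tested members were called higher in the pooled comparison, 15 in wtSOD1-ACM and 15 between the media. Both media lay above control for 5 of the 20 and on opposite sides for 15, and the medians were 1.61 with wtSOD1-ACM and -0.09 with mutSOD1-ACM. A pooled call in this list was not a change shared by the media. Of the 14 calls that differed between the media, Cxcl1, Ccl2, Pgf, Nfkbia, Nfkbiz and Gadd45b were called in all 14 fits without 1 library. The other 8 were not: Ccl7 was called in 12 (adjusted p up to 0.0519), Icam1 in 11 (up to 0.0992), Ier3, Itpkc and Map2k3 in 8 each (up to 0.0753, 0.124 and 0.188), Rnf19b in 7 (up to 0.213), Tnfaip6 in 6 (up to 0.147) and Stat3 in 5 (up to 0.218). For each of these 8 the call was lost without wtSOD1-ACM replicate 1 and without wtSOD1-ACM replicate 2.

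**Figure D4:**
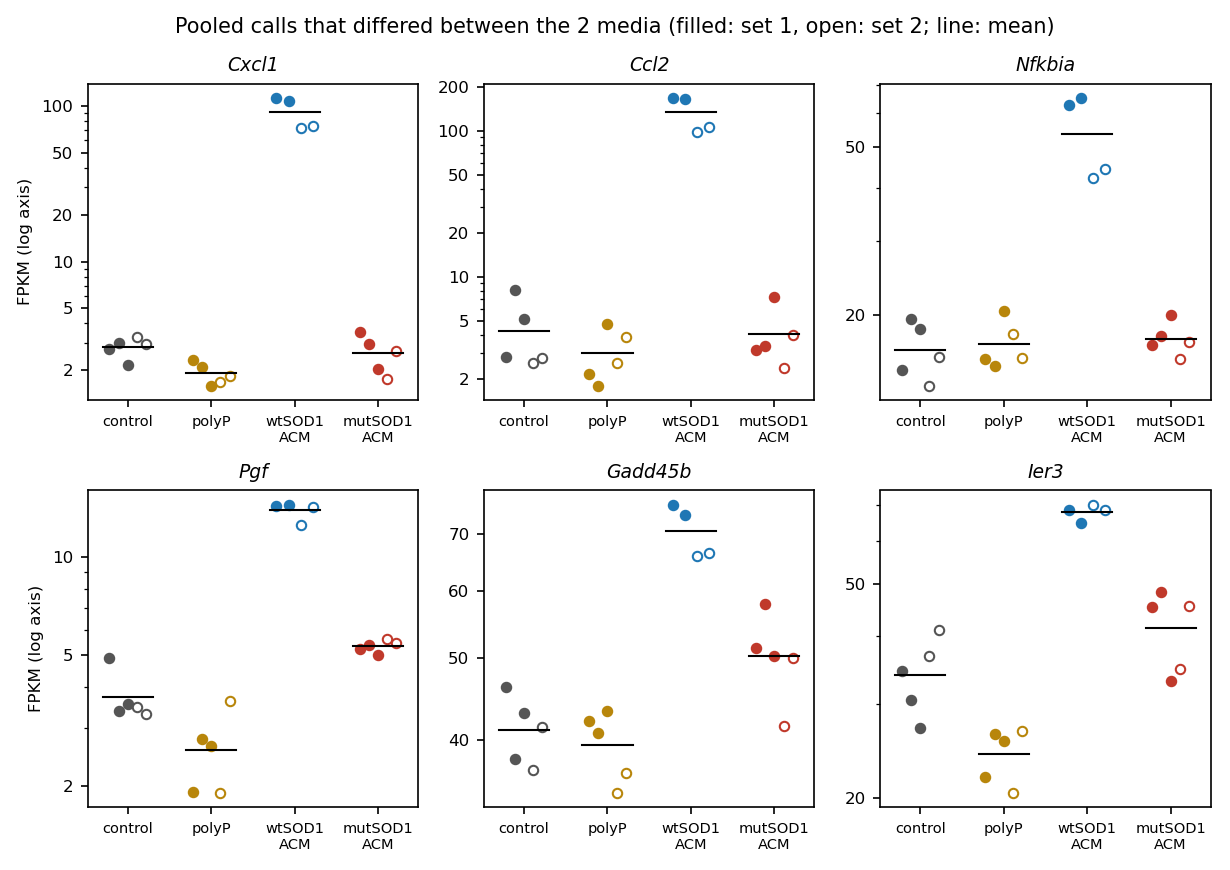
FPKM per library (log axes) of 6 pooled calls that also differed between the media (filled points set 1, open points set 2; line, group mean). The mutSOD1-ACM libraries of Cxcl1, Ccl2 and Nfkbia overlap the controls, while all 5 mutSOD1-ACM libraries of Pgf, at 5.00 to 5.61 FPKM, lay above the 5 controls and below the 4 wtSOD1-ACM libraries.

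Most other lists held no pooled call. Of 35 rapid immediate early genes, 2 were called higher (Gadd45b and Ier3), 11 were higher and 8 lower in both media, and 16 lay on opposite sides. Fos held 123 ± 31.5 FPKM in control (SD, n = 5), 131 ± 48.2 with wtSOD1-ACM (n = 4) and 128 ± 38.7 with mutSOD1-ACM (n = 5), a difference of 0.04 (adjusted p = 1) that was 0.26 within set 1 and -0.18 within set 2. Npas4 and Bdnf, induced by neuronal firing, differed by -0.22 and -0.11 (adjusted p = 1). Of 9 targets of the glucose-sensing factors MondoA and ChREBP, 0 had an unadjusted p under 0.05 (0 calls by limma), and Txnip, the best known of them, held 16.9 ± 2.27, 15.6 ± 2.58 and 18 ± 4.51 FPKM. Of 24 cholesterol synthesis genes, 0 passed an unadjusted p under 0.05 either. Sod1, the rat's own gene, held 204 ± 26.9, 208 ± 21 and 223 ± 18.1 FPKM (0.09, adjusted p = 1). Gfap, the filament protein of astrocytes, held 22.4 ± 8.64 FPKM in control (SD, n = 5), 33.4 ± 10.4 with wtSOD1-ACM (n = 4) and 20.4 ± 3.95 with mutSOD1-ACM (n = 5), and was not called. Fkbp5, a glucocorticoid target, differed by 0.05 and was not called. Of 17 heat shock genes, both media lay above control for 14 and below for 0, with 0 called by limma and 2 higher at an unadjusted p under 0.05, Bag3 (0.30, adjusted p = 0.0654) and Hspb1 (0.48, adjusted p = 0.898). Bag3, a co-chaperone, was called with wtSOD1-ACM (0.49, adjusted p = 0.00122) and between the media (-0.36, adjusted p = 0.037), with mutSOD1-ACM at 0.14. Both media also lay above control for 38 of 41 ribosomal protein genes and 27 of 30 respiratory chain genes, by a median of 0.07 and 0.05, with 0 called by limma and 1 and 0 at an unadjusted p under 0.05. Genes of such lists move together within a library, so these counts are not independent observations. The summed FPKM was 1.02 times that of control in ACM (exact permutation test with both tails, p = 0.149), and its part in these small shifts was not tested.

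No marker gene of a cell type was called in the pooled comparison. The microglia list had a median of -0.32, with both media below control for 14 of 17 members and 0 with an unadjusted p under 0.05 (0 called by limma). Its summed FPKM ran from 110 to 861 in control, from 105 to 440 with wtSOD1-ACM and from 104 to 423 with mutSOD1-ACM. The 861 FPKM of 1 control library lay far above the other values, and within set 2 the list median was -0.01. Oligodendrocyte, astrocyte and pan-neuronal markers had medians of -0.13, -0.01 and 0.08. Control replicate 2 held the most Cx3cr1 of any library, at 32.79 FPKM. The part of microglial RNA in the differences from control was not tested.

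**Figure D5:**
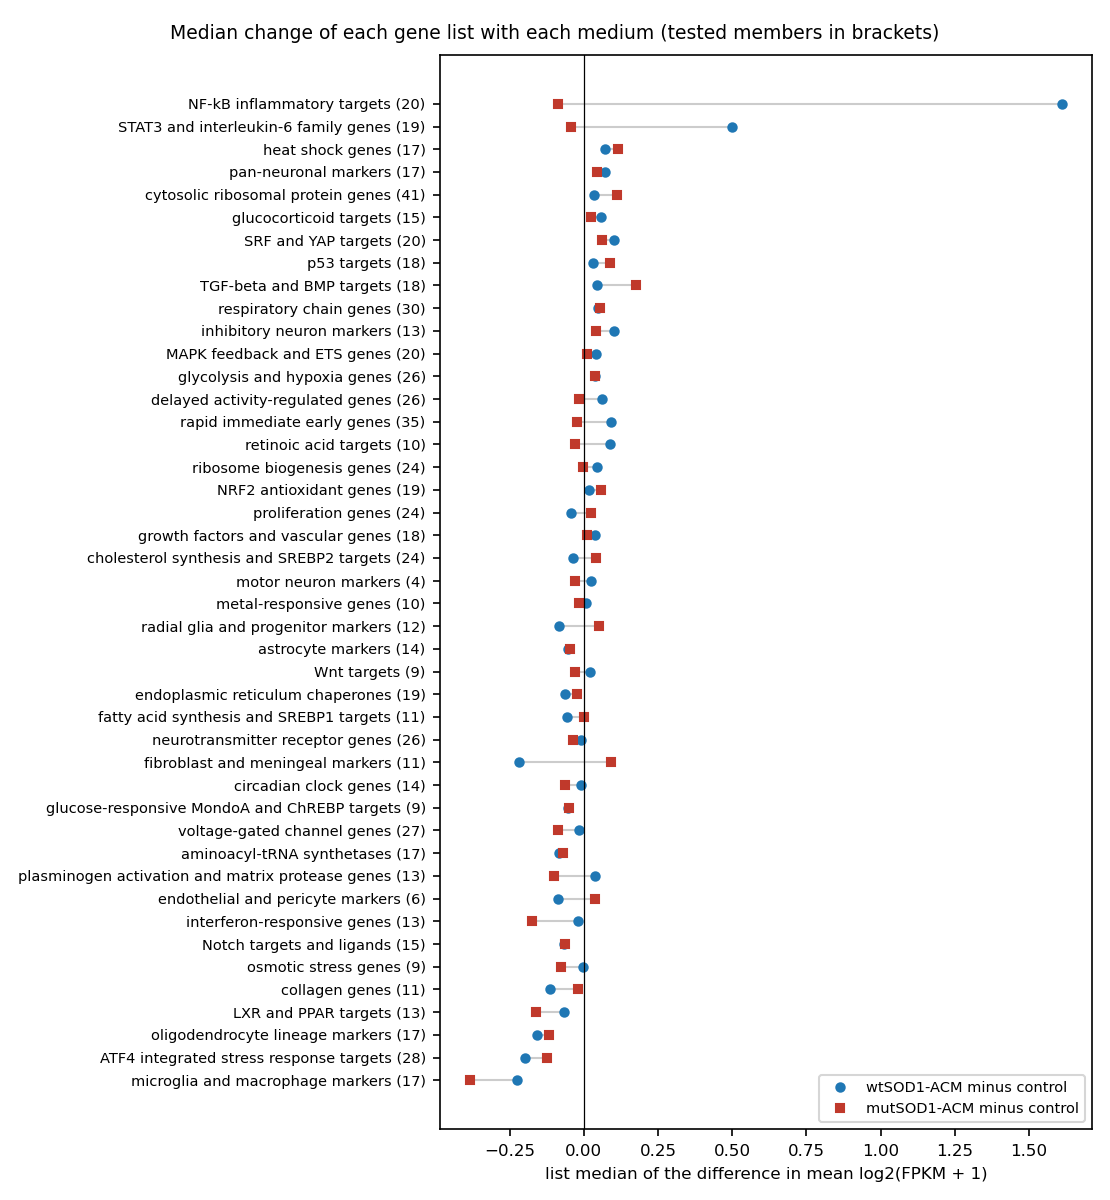
Median difference in log2(FPKM + 1) from control of each gene list with wtSOD1-ACM (circles) and mutSOD1-ACM (squares); the media share the 5 control libraries. The NF-kB list stands at 1.61 and -0.09, the ATF4 list at -0.20 and -0.12, and the microglia list is lowest with a pooled median of -0.32.

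Set against polyP, given for the same 90 min, the ACM libraries differed far more than from control: 3726 genes were called (31.3%), 1025 higher (8.62%) and 2701 lower (22.7%). That split depended on scaling and was 1533 higher and 1525 lower with median-of-ratios scaling. Against this background the shared genes were read by their levels. Smad7 ran from 4.36 to 5.53 FPKM with polyP, below all 5 controls, so that ACM and polyP stood on opposite sides of control (ACM minus polyP 1.01, adjusted p = 2.18e-08). Pmepa1 ran from 41.97 to 59.11 FPKM with polyP (1.03, adjusted p = 2.2e-07). Chac1 with polyP, at 38.64 to 47.06 FPKM, lay above all 9 ACM libraries and reached into the control range (-0.43, adjusted p = 0.00175). Mthfd2 ran from 33.62 to 37.15 FPKM with polyP, within or above the control range (-0.43, adjusted p = 1.23e-05). Herpud1 and Iars were the 2 of the 27 pooled calls that did not differ from polyP at the threshold: Herpud1 ran from 39.23 to 41.45 FPKM with polyP (-0.06, SE 0.047, adjusted p = 0.372) and Iars from 39.95 to 43.49 FPKM (-0.08, adjusted p = 0.184). All 5 polyP libraries of Herpud1 lay below all 5 controls (46.27 to 50.06 FPKM), so its lower level was not particular to ACM. The same held for Mir1896, at 3.11 to 6.65 FPKM with polyP against 7.01 to 11.94 in control. Iars with polyP overlapped the controls. Of the 28 ATF4 targets, 15 were called lower and 3 higher in ACM than with polyP.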

How the data were processed

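The 19 libraries are poly(A)-enriched RNA sequencing libraries of rat spinal cord cultures. The authors deposited 1 table of FPKM per gene and library, with 2 decimals, per the file headers. Reads were aligned with HISAT to the rn6 build, per the submitters' processing notes. The sources used here do not name the tool behind the FPKM, the annotation or a scaling across libraries (not given in the sources used here). As the values are no counts, the test was on a log scale. Total fragments are not in the table. Relative depth, read from the step sizes of 106 rarely detected genes (576 values, 95.1% whole within 0.1 fragment), ranged over a ratio of 1.92 between libraries.

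Values were tested as log2(FPKM + 1), a pseudocount of 1, which understates changes of low genes, with limma 3.58.1 in R 4.3.3 (statmod 1.5.0, trend and robust empirical Bayes), two-sided. A gene was tested at an FPKM of at least 1 in 4 of the 19 libraries. All 4 groups entered one fit. The pooled contrast weights wtSOD1-ACM by 4 and mutSOD1-ACM by 5 of the 9 libraries. Benjamini-Hochberg adjustment covered all 11887 genes tested, every adjusted p in the text is from limma, and a call is an adjusted p under 0.05. The labels call the cultures independent. P-values measure the spread between these libraries.

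The members, the gene lists and the tests were chosen with earlier results of these data known. Genes were named by rule: those called in the pooled comparison and both media without overlap with control, up to 6 of each of 12 lists by p, and 10 fixed genes, of which 1 is not reported here. Other genes were named after their values were seen. Alternatives covered pseudocount, filter, scaling, set, clusters, replicate block, weights, a fit without polyP, 1 pooled group and single libraries. Start regions come from RefSeq (GRCr8), matched by gene ID. The scripts were tested on simulated data.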

Additional observations from a re-analysis of the deposited data

Results flagged for a closer look

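Of the 27 pooled calls, 14 differed between the media by limma (adjusted p under 0.05). As mutSOD1-ACM minus wtSOD1-ACM on the log2(FPKM + 1) scale, the difference was -4.78 for Ccl2, -4.69 for Cxcl1, -2.47 for Icam1, -2.14 for Ccl7, -1.86 for Nfkbiz, -1.53 for Nfkbia and -1.23 for Pgf. It was -0.72 for Ier3, -0.68 for Map2k3, -0.64 for Itpkc, -0.54 for Tnfaip6, -0.49 for Gadd45b, -0.41 for Stat3 and -0.33 for Rnf19b.

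Single libraries stood apart from the rest of their group by Dixon's criterion in 7 of 81 groups of values examined, where chance alone gives about 1 in 20. Among the controls, replicate 1 was highest for Pgf (4.92 FPKM), replicate 2 for Ccl7 (1.68 FPKM) and Icam1 (29.83 FPKM), and replicate 5 for Rhob (238.96 FPKM) and Ier5l (35.45 FPKM). Among the wtSOD1-ACM libraries, replicate 3 was lowest for Pgf (12.56 FPKM) and Map2k3 (21.24 FPKM). Control replicate 2 also held the most Cx3cr1, a microglia gene, at 32.79 FPKM, and the part of this in its Ccl7 and Icam1 was not tested.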

How the results depend on the processing

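Adjusted p-values and counts are from limma. The pooled count of 27 was 49 with the set as a term, 123 with 3 clusters as a term, 5 in set 1, 51 in set 2 and 8 with the ACM libraries as 1 group, and 13 to 33 without 1 library. It was 25 with median-of-ratios scaling, 20 at equal summed FPKM and 24 with quantile normalization. F3, Chsy1, Stat3 and Tnfaip6 lost the call under all 3 of these scalings. At equal summed FPKM Iars, Rnf19b, Map2k3 and Itpkc also lost it, and with quantile normalization Rnf19b and Trib3 did. The 27 calls kept their sign in every alternative that tested them. WtSOD1-ACM called 143 genes with the set and 239 with 3 clusters as a term (56 to 78 without 1 library), and mutSOD1-ACM called 1 without the filter, 1 at equal summed FPKM, 5 with 3 clusters, 0 in set 1 (607 at an unadjusted p under 0.05) and 5 in set 2 (1 to 2 without 1 library). Both media called 1 gene (Smad7) without the filter and at equal summed FPKM, 5 with 3 clusters (Smad7, Pmepa1, Chac1, Sesn2 and Foxc2), 0 in set 1 (99 at an unadjusted p under 0.05 in each) and 5 in set 2 (Smad7, Pmepa1, Chac1, Gal and Il1b), and 1 to 2 without 1 library. With median-of-ratios scaling or quantile normalization these were Smad7 and Chac1. Between the media 99 genes were called with the set and 119 with 3 clusters (40 to 59 without 1 library). Against polyP the counts were 5888, 6511, 1490 in set 1 and 6059 in set 2 (3244 to 3972). The ratio of summed FPKM ran from 1.01 to 1.03 without 1 library, with an exact permutation p of 0.042 without control replicate 5. The causes were not tested.

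Whether equal replicate numbers mark paired samples could not be told. The correlation of deviations between equally numbered libraries ran from -0.69 to 0.76 for control and wtSOD1-ACM, from 0.0781 to 0.79 for control and mutSOD1-ACM and from -0.72 to 0.73 for the 2 media. Between unequally numbered libraries it ran from -0.80 to 0.78, from -0.70 to 0.81 and from -0.76 to 0.75 in turn. Replicate 3 was in set 1 for control and mutSOD1-ACM and in set 2 for wtSOD1-ACM. With the replicate block, the pooled comparison called 40 genes (26 of the 27), wtSOD1-ACM 119, mutSOD1-ACM 5, both media 4 (Smad7, Pmepa1, Chac1 and Lhx5), the contrast between the media 96 and that with polyP 5633.

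All reversals were of uncalled genes. In set 2 these were Cnn1 (-0.0118), Zfp36 (-0.0465), Ier2 (-0.0206), Fos (-0.18), Fcgr3a (0.00877), Hspa5 (0.00398) and Txnip (0.12), in set 1 Npas4 (0.18), and with the replicate block Txnip (0.0167). Without 1 library the difference ran from -0.0450 to 0.15 for Fos and from -0.0933 to 0.0342 for Txnip, from -0.56 to 0.0187 for Ptprc, from -0.65 to 0.0256 for Cx3cr1 and from -0.65 to 0.0304 for Cd68, the last 3 highest without control replicate 2. Depth in fragments is unknown, which limits genes at low FPKM such as Foxc2 and Trib3.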
